A study of Equus caballus with 6 samples.

Results

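Antigen presentation in horse blood was followed here through 4 genes: EQMHCC1, a class I heavy chain gene of the major histocompatibility complex (MHC); B2M, the light chain that every class I molecule carries; CD74, the invariant chain of class II molecules; and CD1C, a lipid-presenting relative of class I. They were found as the non-control probes whose RefSeq transcript belongs to 1 of these genes, which gave 5 probes of 43603 on the array and 4 of the 870 genes that could be named. EQMHCC1, CD74 and CD1C had 1 probe each and B2M had 2. The genes were selected on results of these same arrays: EQMHCC1 was chosen by its difference between the horses, so its levels by horse are a description and carry no test. B2M, CD74 and CD1C were chosen with their levels and changes known, so their tests describe these arrays and are no independent support. Buffy coat, the layer of white cells that forms in spun blood, had been taken from 3 warmblood horses, neutered males numbered 1, 2 and 4. Each horse gave 1 sample before and 1 after exercise, so 3 arrays stood against 3, and so small a number of arrays limits precision. The labels give ages of 11, 7 and 15 years for horses 1, 2 and 4, whereas the description of the design gives a range from 9 to 17 years. The labels of the samples after exercise carry 60 min, whereas the protocol places sampling right after the exercise, so the interval is not settled. No agent, allele or other treatment is named for any horse.

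Class I molecules show peptides from inside a cell to cytotoxic T cells and are built from a polymorphic heavy chain and the invariant B2M protein, on nearly all nucleated cells. Class II molecules show peptides taken up from outside to helper T cells and are made mainly by B cells, monocytes and dendritic cells. In these cells CD74 blocks the peptide groove of class II until loading. CD1 proteins pair with B2M too and show lipids to T cells, and CD1C is known from dendritic cells and B cells. Class I heavy chain genes lie close together in a cluster, are alike in sequence and vary strongly between animals.

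Levels below are log2 processed signals from which each array's 75th percentile was subtracted, so that 0 is the 75th percentile of that array and a step of 1 is a doubling. All 5 probes were well above background on all 6 arrays, none was saturated and none was marked as an outlier spot. The 6 arrays lay on 2 slides: the samples of horses 1 and 2 before exercise on slide 2, and the other 4 on slide 1. A change in horse 1 or 2 thus also spans the slides, and only the change in horse 4 lies within 1 slide. CD53, the only general leukocyte marker of 4 listed with a probe named here, lay between 3.33 and 4.18 on all 6 arrays. The haemoglobin genes HBB and HBA2 were measured as well, at a summed linear level relative to the 75th percentile of 4.84 to 407 before and 27.1 to 486 after exercise. In bulk blood samples, fewer cells of a type and less RNA per cell cannot be told apart.

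EQMHCC1 separated horse 4 from the other horses on every array. The processed signal of its probe was 11952 before and 18452 after exercise in horse 1, and 12434 and 15228 in horse 2. In horse 4 it was 284 before and 452 after, over a median local background of 17.5 and 19. On the log2 scale the levels were 2.73 and 3.24 in horse 1, 2.29 and 2.76 in horse 2, and -2.62 and -1.31 in horse 4. Horse 4 thus lay below both others at both times, and horses 1 and 2 lay close together. The mean of horse 4 minus that of the other horses was -4.73, which is a signal 26.5-fold higher in horses 1 and 2. This split of the horses was made after the values were seen. On slide 1 alone, where all 3 samples after exercise lay, the same difference was -4.31. All of these values rest on 1 probe, and whether it binds equally well to the transcripts of each horse was not tested. Horse 4 is also the oldest of the 3, and horse and age cannot be told apart. Its standard deviation between horse means was 2.74, against 0.34 within pairs, where the pair value is what remains after each horse's mean and the mean exercise change are taken out. Of 29351 probes measured on all arrays, 52 (0.177%) had a larger standard deviation between horses, in the contrast by which EQMHCC1 was picked. The gap was about as wide after normexp background correction, quantile normalization and median scaling, with standard deviations between horses of 2.63, 2.75 and 2.71.

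**Figure D1:**
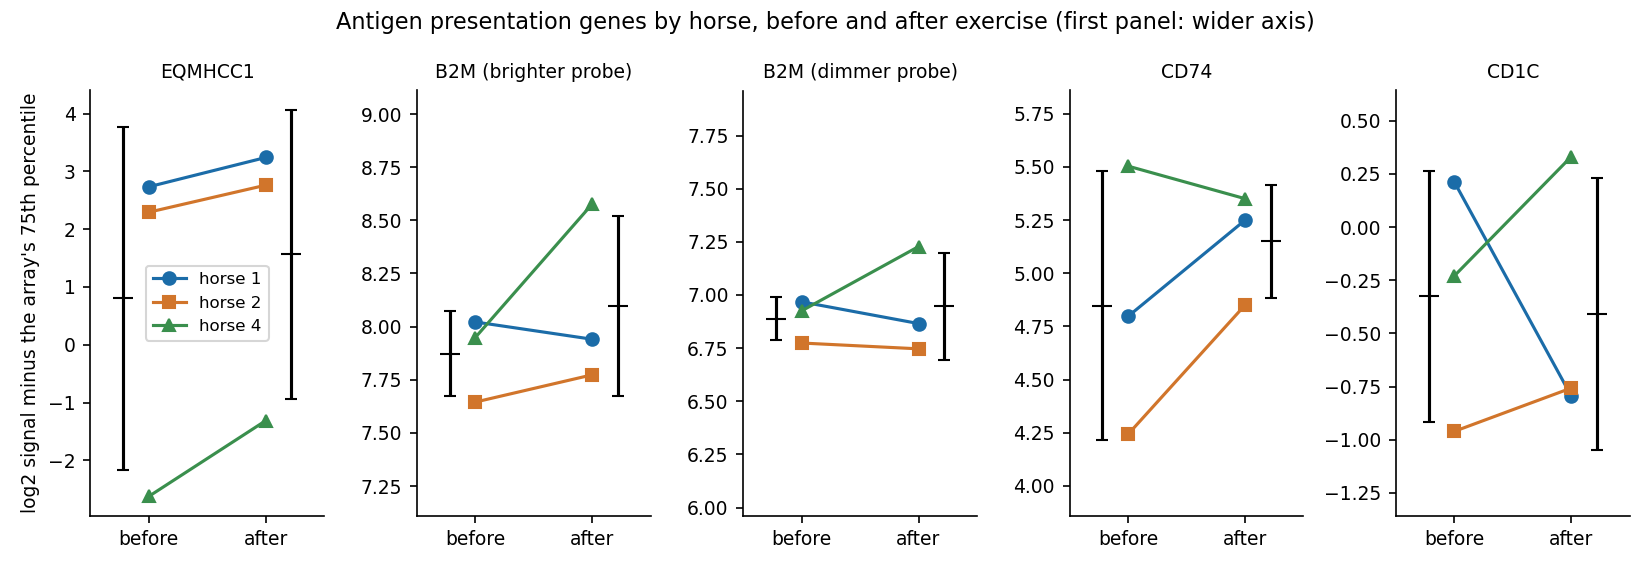
Log2 signal minus the array's 75th percentile for the 5 probes of the 4 genes, before and after exercise, with 1 line for each horse and black bars for the mean and SD of the 3 arrays of a group. The EQMHCC1 panel has a wider axis than the others, which all span the same range; horse 4 lies at -2.62 and -1.31 there, below every array of horses 1 and 2.

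Within each horse the EQMHCC1 signal was higher after exercise than before. The log2 change was 0.51 in horse 1, 0.47 in horse 2 and 1.31 in horse 4. The group means were 0.80 ± 2.97 (SD, n = 3) before and 1.56 ± 2.50 (SD, n = 3) after, and the groups overlapped. They overlapped for all 5 probes, where 7.31% of all probes had groups that did not. The mean change of 0.76 had a standard error of 1.73 and did not pass (limma, adjusted p = 0.999 over all probes). With the horse as a block, which takes the level of each animal out, the standard error was 0.23 and the adjusted p in limma was 0.75. Of all probes measured on every array, 28.8% had the same direction in all 3 horses and 17.3% were higher after exercise in all 3. EQMHCC1 was the 1 probe of the 5 with the same direction in all 3 horses. In the blocked fit 6.08% of the probes tested had an unadjusted p under 0.05, as EQMHCC1 did (unadjusted p = 0.026 in limma). Where 1 array was left out of the unblocked fit, the groups held unequal shares of the high horses. The change took the other sign in 2 such fits: -0.95 without the array of horse 4 before exercise and -0.08 without that of horse 1 after exercise. It kept its sign in the other fits without 1 array, from 0.16 without horse 2 after exercise to 2.20 without horse 4 after exercise. Across all probes, 0 of 29570 (0%) were called for exercise in limma, both without and with the horse as a block, and 855 (2.89%) had an unadjusted p under 0.05 without it.

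The genes beside EQMHCC1 did not share its pattern. In the order of protein-coding genes of the TB-T2T assembly, 3 of the 24 genes within 12 places on either side had a measured probe, a span chosen after the order had been looked at. MHCB3, 5 places away and named for the MHC, had levels of 6.41 and 6.76 in horse 1, 6.19 and 6.54 in horse 2, and 6.93 and 7.10 in horse 4. Horse 4 was the highest there at both times, and the changes of 0.35, 0.35 and 0.17 had 1 direction, with a standard deviation of 0.07 within pairs against 0.33 between horses. EQMCE1, 9 places away, had levels of 5.84 and 5.71 in horse 1, 5.09 and 5.19 in horse 2, and 5.92 and 6.11 in horse 4 at its brightest probe. Horse 2 was the lowest, and its other 5 probes also placed horse 2 lowest, with standard deviations between horses of 0.41 to 0.56 over all 6 probes. Horse 4 had the highest mean at all 6, but before exercise horse 1 lay above horse 4 at 4 of them. Neither gene passed between horses in limma's F-test (adjusted p = 0.32 for MHCB3 and 0.25 for EQMCE1), where 70 of 29567 probes (0.237%) were called. TNF, the inflammatory cytokine gene 7 places away, lay between 0.11 and 2.09 and was highest in horse 4 after exercise. MHCB3 and EQMCE1 were named after their values were seen. Class I genes are alike in sequence, so a probe for 1 of them may bind transcripts of another, and this was not tested.

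**Figure D2:**
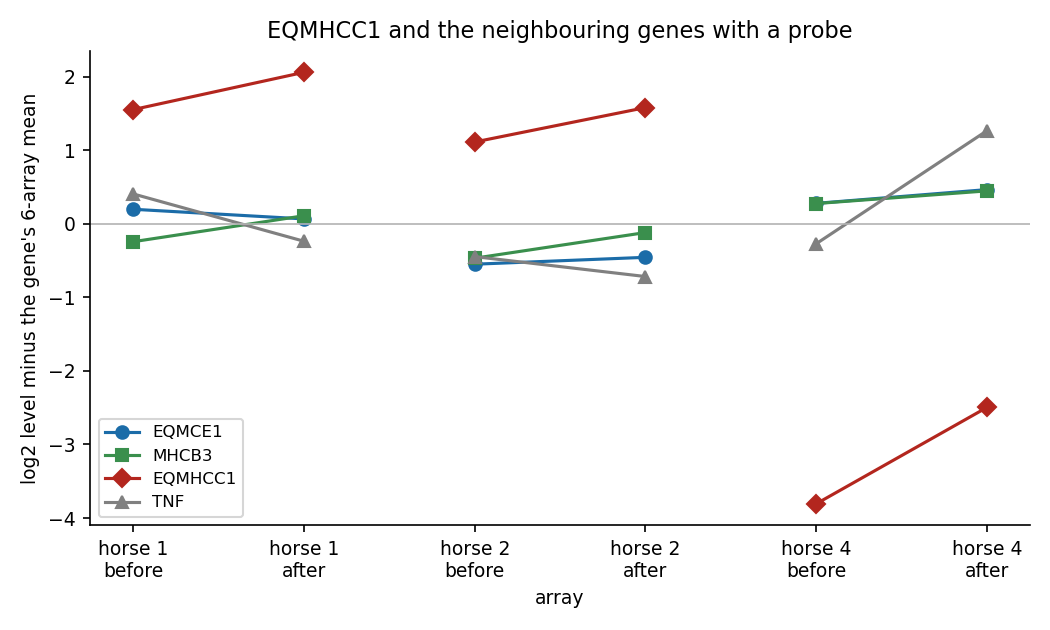
Log2 level on each of the 6 arrays minus the gene's mean over the arrays, for EQMHCC1 and the 3 genes within 12 places of it that had a measured probe, with a line joining the samples of each horse. EQMHCC1 is high in horses 1 and 2 and low in horse 4, whereas MHCB3 and the brightest EQMCE1 probe, which is the one drawn, are highest in horse 4.

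Most of the genes nearest to EQMHCC1 in pattern were near background on part of the arrays. Likeness was the root mean square difference of log2 levels over the 6 arrays after each gene was centred on its own mean, over 555 other named genes, and EQMHCC1 itself varied by 2.28 on this measure. The nearest were CYP3A93 (0.89), CYP3A89 (1.097), CYP3A97 (1.24), CTTNBP2 (1.28) and CYP3A94 (1.37), of which 4 are cytochrome P450 genes of 1 subfamily. The share of that subfamily among the 555 genes was not counted. Whether its probes bind each other's transcripts was not tested. CYP3A89 was well above background on all 6 arrays, with levels of -2.21 and -2.40 in horse 1, -2.85 and -3.14 in horse 2, and -5.31 and -5.25 in horse 4. The other 4 were well above background on 3 or 4 arrays, so their low values are near background. The filter asked for only 3 arrays. All the nearest genes, CYP3A89 included, were picked for likeness to a gene chosen by its difference between the horses. Their likeness is thus a description and no support for a shared pattern.

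B2M, the partner of all class I heavy chains, spanned 0.93 log2 units over the 6 arrays at its brighter probe and 0.48 at its dimmer one. Its brighter probe, the 9th brightest of all probes kept, had log2 levels of 8.02 and 7.94 in horse 1, 7.65 and 7.77 in horse 2, and 7.95 and 8.58 in horse 4. The horse 4 sample after exercise was the highest and the horse 2 sample before exercise the lowest, and the groups overlapped. The dimmer probe had 6.97 and 6.87 in horse 1, 6.77 and 6.75 in horse 2, and 6.93 and 7.23 in horse 4. Both probes put horse 4 after exercise on top, and they disagreed in sign for the small change of horse 2 (0.13 and -0.03). The change after exercise was 0.22 (SE 0.26) for the brighter and 0.06 (SE 0.20) for the dimmer probe, and neither passed in limma (adjusted p = 0.999 for both; 0.79 and 0.93 with the horse as a block). Between horses the adjusted p of limma's F-test was 0.48 and 0.63.

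The brighter B2M probe put the 6 arrays in the same order as the median of the 100 brightest probes did, and it is itself among those 100. The processed signal of the brighter probe itself was lower in horse 4 after exercise (429152) than in horse 4 before (433078), and the highest of the 6 was 507544 in horse 2 before exercise. The 75th percentile that was subtracted was 1124 for the first of these arrays, 1753 for the next and 2536 for the last. That median level deviated from its mean by 0.56 in horse 4 after exercise and by -0.36 in horse 2 before exercise. Its part in the B2M values was not tested. The genes nearest to B2M in pattern were RPLP0, a ribosomal protein gene (0.05), EEF1A1, a translation elongation factor gene (0.06), and FTH1, the ferritin heavy chain gene (0.07), all bright. After quantile normalization the 6 levels of the brighter probe lay between 7.94 and 8.01 and its change was 0.009, and the change of the dimmer probe took the other sign (-0.15).

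CD74 was higher after exercise in horses 1 and 2 but not in horse 4. Its levels were 4.80 and 5.25 in horse 1, 4.24 and 4.85 in horse 2, and 5.50 and 5.35 in horse 4. The horse 4 sample before exercise was the highest of all 6, the horse 2 sample before exercise was the lowest, and the 3 samples after exercise lay within the range of those before. The changes were 0.45, 0.61 and -0.15 in horses 1, 2 and 4. Group means were 4.85 ± 0.63 (SD, n = 3) before and 5.15 ± 0.27 (SD, n = 3) after, and the mean change of 0.30 (SE 0.34) did not pass in limma (adjusted p = 0.999; 0.76 with the horse as a block). With slide as a block, or within slide 1 alone, the comparison rests on the single before-exercise array of horse 4 and the change was -0.35 (SE 0.33 and 0.28). Without the horse 2 array before exercise it was -0.0006, and without the horse 4 array before exercise it was 0.63 (limma, adjusted p = 0.29). In the latter fit the arrays before exercise were all on slide 2 and those after it all on slide 1, so exercise and slide cannot be told apart. Horse means were 5.02, 4.55 and 5.43, and limma's F-test gave an adjusted p of 0.34.

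MHCX1, another gene named for the MHC and chosen after its values were seen, was likewise higher after exercise in horses 1 and 2 only. Its levels were 4.98 and 5.44 in horse 1, 4.17 and 4.71 in horse 2, and 5.39 and 5.31 in horse 4. The changes of 0.46, 0.54 and -0.08 have the signs of those of CD74, and the mean of 0.31 (SE 0.36) did not pass in limma (adjusted p = 0.999). The 3 genes nearest to CD74 by the measure above were APOBEC3Z2A-Z2, an antiviral deaminase gene (0.08), CPT1A, which carries fatty acids into mitochondria (0.10), and SELENOH, a selenoprotein gene (0.11), where CD74 itself varied by 0.42.

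Markers of cells that make class II did not share 1 direction beside CD74. Of 8 listed monocyte markers 5 were measured, with a mean change of 0.48, 0.40 and -0.19 in horses 1, 2 and 4, but the 5 were split in horse 4. Their summed linear level was 33.7 to 83.4 before and 50.9 to 98.5 after exercise. CD14, the endotoxin co-receptor of monocytes, had changes of 0.79, 0.84 and -0.77 in the same order, ITGAX 0.12, 0.87 and -0.84, and CSF1R 0.26, 0.22 and -0.28, with the signs of CD74. CD68 had 0.76, -0.44 and 0.48 and TIMP1 0.49, 0.53 and 0.45, so both were higher after exercise in horse 4, where CD74 was not. Of 9 listed B cell markers 3 were measured (PAX5, FCER2 and TNFRSF13C), with mean changes of -0.26, -0.22 and 0.15, though TNFRSF13C was lower in all 3 horses, and a summed level of 0.89 to 1.67 before and 1.03 to 1.57 after. Of 8 dendritic cell markers, FCER1A alone was measured. None of these markers passed for exercise, all were well above background on all 6 arrays, and their part in the CD74 values was not tested. The signs of CD74 were not particular to monocyte markers. In horses 1, 2 and 4, CD53 changed by 0.24, 0.41 and -0.27. The mean change was 0.14, 0.67 and -0.46 for the measured T cell markers and 0.15, 0.95 and -0.21 for those of neutrophils. For natural killer and cytotoxic cells it was 0.41, 0.41 and -0.31. Platelet and erythroid markers had a mean above 0 in all 3 horses. Where CD74, MHCX1 and the markers split horse 4 from horses 1 and 2, horse and slide arrangement cannot be told apart. The share of all probes with the signs of CD74 was not counted.

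CD1C had the widest spread within pairs of the 4 genes. Its levels were 0.21 and -0.79 in horse 1, -0.96 and -0.76 in horse 2, and -0.23 and 0.33 in horse 4. The highest sample was horse 4 after exercise and the lowest horse 2 before exercise, and the groups overlapped almost fully. The change was -1.01 in horse 1, 0.20 in horse 2 and 0.56 in horse 4, so the horses did not share a direction. The mean change of -0.08 (SE 0.42) did not pass in limma (adjusted p = 0.999; 0.96 with the horse as a block), and its sign turned under median scaling (0.007) and without both arrays of horse 1 (0.38). Without only the horse 1 array before exercise the change was 0.19, without that after exercise 0.11, and without the horse 2 array after exercise 0.09. The standard deviation was 0.46 between horse means and 0.58 within pairs, and limma's F-test between horses gave an adjusted p of 0.50. FCER1A, a receptor gene of basophils and some dendritic cells and the 1 dendritic cell marker of 8 measured, had changes of -0.48, 0.13 and 0.65, in the same order over the horses as CD1C. The levels were not in the same order. The mean of FCER1A was lowest in horse 4, at 2.32 against 3.40 and 3.16 in horses 1 and 2. That of CD1C was highest there, at 0.05 against -0.29 and -0.86. The summed linear level of FCER1A was 3.98 to 12.5 before and 6.23 to 9.35 after exercise, and its part in the CD1C values was not tested. By pattern the nearest genes were KIT, the stem cell factor receptor gene of mast cells and progenitors (0.13), WWP2, a ubiquitin ligase gene (0.22), and DNAJC28, a DnaJ-family gene (0.23), where CD1C itself varied by 0.50.

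The other CD1 genes had a smaller spread within pairs than CD1C, from 0.02 to 0.37 against 0.58, a difference that was not tested. Of 16 listed genes of the CD1 group and lipid presentation, 10 had a named probe; CD1D and CD1A3 were not well above background on any array, and 8 were measured. CD1A had levels of 0.53 and 0.56 in horse 1, 0.33 and 0.43 in horse 2, and 0.45 and 0.53 in horse 4, with a standard deviation within pairs of 0.02. CD1A5 had 1.26 and 1.35, 0.99 and 1.13, and 1.22 and 1.32 in the same order, with 0.02 as well. These values were slightly higher after exercise in all 3 horses, by 0.04, 0.10 and 0.08 for CD1A and 0.09, 0.14 and 0.10 for CD1A5, and CD1B1 by 0.01, 0.30 and 0.33. CD1A7 was highest in horse 4, at 0.92 and 1.01, against 0.22 and 0.20 in horse 1 and 0.02 and 0.28 in horse 2 (limma F-test between horses, adjusted p = 0.24). CD1A2 was lowest in horse 4, at 0.56 and 0.72, against 1.03 and 1.103 in horse 1 and 1.02 at both times in horse 2 (adjusted p = 0.42). The 7 measured CD1 genes other than CD1C had mean changes from -0.16 to 0.21, and none passed in limma (adjusted p = 0.999 for each).

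CD1B2 and CD1E, which stand 1 and 2 places from CD1C in the TB-T2T gene order, were lower after exercise in horses 1 and 2 and higher in horse 4. The log2 change was -0.44, -0.35 and 0.40 in horses 1, 2 and 4 for CD1B2, and -0.34, -0.58 and 0.43 for CD1E. CD40, the receptor through which helper T cells activate B cells and dendritic cells, did so too, with -0.51, -0.38 and 0.59. All 5 CD40 probes had the same signs by horse. CD1E1, outside the lists and named after its values were seen, had -0.48, -0.61 and 0.07. The sign thus went with the horses whose samples were split over the slides, and horse and slide arrangement cannot be told apart. Of the 7 measured CD1 genes other than CD1C, 2 had this split by horse. Its share over all probes was not counted, but only 28.8% of them had the same direction in all 3 horses. None of CD1B2, CD1E, CD40 and CD1E1 passed in limma (adjusted p = 0.999 for each, and from 0.75 to 0.93 with the horse as a block). With slide as a block the changes of CD1B2, CD1E and CD40 took the sign of horse 4 (0.29, 0.14 and 0.48), and that of CD1E1 did not (-0.44). That fit rests on the single before-exercise array of horse 4, so its signs cannot tell slide from horse.

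**Figure D3:**
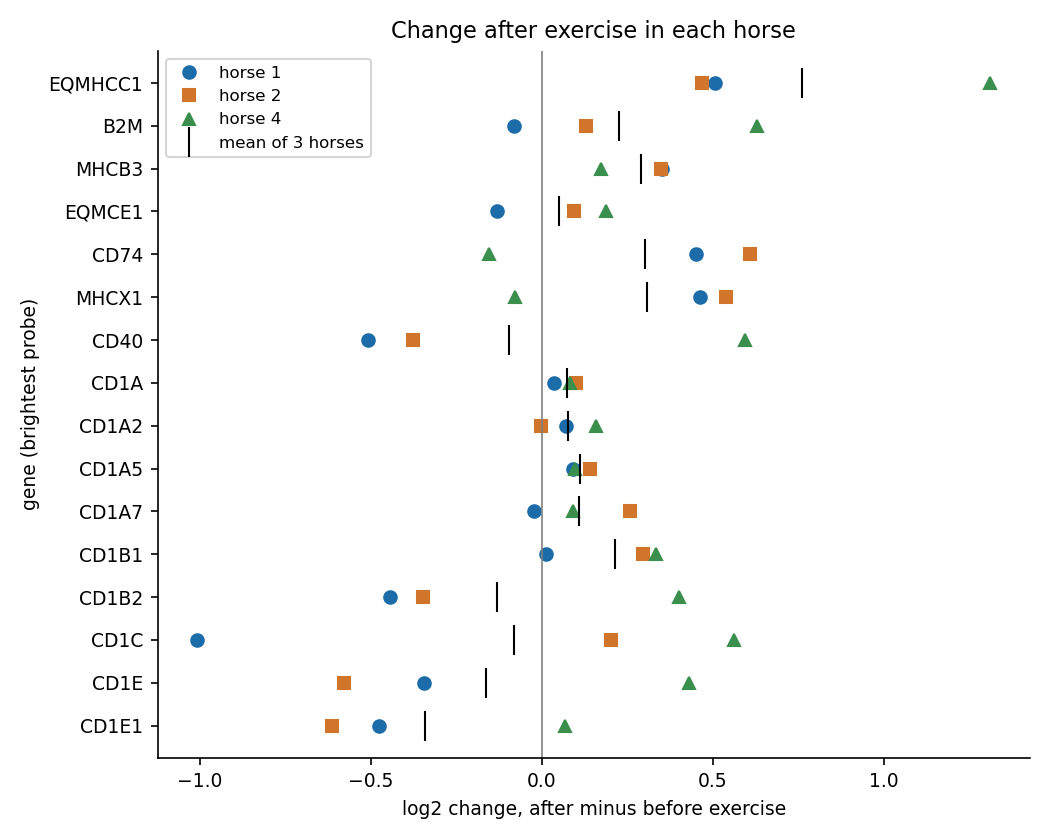
Log2 change after exercise in each horse (symbols) and its mean over the 3 horses (bar), for the 12 measured genes of the pathway lists and 4 genes outside them, each at its brightest probe. EQMHCC1, MHCB3, CD1A, CD1A5 and CD1B1 lie right of 0 in all 3 horses, and in CD1B2, CD1E, CD1E1 and CD40 horse 4 lies right of 0 and the others left.

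Over the whole pathway few genes could be read. Of 90 listed symbols, which include alternative names for a gene, 14 had a named probe and 12 were measured; no listed gene of the proteasome and class I control group, such as those of the immunoproteasome, had one. Of these 12, 0 rose and 0 fell after exercise in limma, and 0 were called with the horse as a block. Over all probes 0% were called in either fit. Without the block 0 of the 12 had an unadjusted p under 0.05, where 2.89% of all probes had one. With it EQMHCC1 had one (unadjusted p = 0.026 in limma), where 6.08% of all probes did. The median change was 0.09 over the 12 genes and 0.04 over all probes tested. Of the 12, 4 were higher after exercise in all 3 horses (EQMHCC1, CD1A, CD1A5 and CD1B1), where 17.3% of all probes were, and 0 were lower in all 3. Between horses EQMHCC1 carries no test, since it was chosen by that contrast. None of the other 11 listed genes passed. CD1A7 was the 1 of them with an unadjusted p under 0.05 in limma's F-test (0.018), where 15.5% of all probes had one.

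Set against all probes, the ratio of the spread between horses to that within pairs lay between the quartiles for B2M, CD74 and CD1C and above them for EQMHCC1. Over the probes kept, the median standard deviation was 0.24 between horses and 0.23 within pairs, and the median ratio was 0.999. The ratio was 1.07 and 1.04 for the B2M probes, 1.55 for CD74 and 0.79 for CD1C, against upper and lower quartiles of 1.85 and 0.57 over all probes. For EQMHCC1 it was 8.14, from the contrast by which the gene was picked. The ratio of CD1C set 2 wide spreads against each other: 18.5% of probes had a larger standard deviation between horses and 11.1% a larger one within pairs. For CD74 these shares were 20.1% and 39.7%, and for the brighter B2M probe 43.3% and 44.9%. Within pairs, 31.4% of probes had a larger standard deviation than EQMHCC1. Without horse 4 the standard deviation between the 2 remaining horse means of EQMHCC1 was 0.33.

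**Figure D4:**
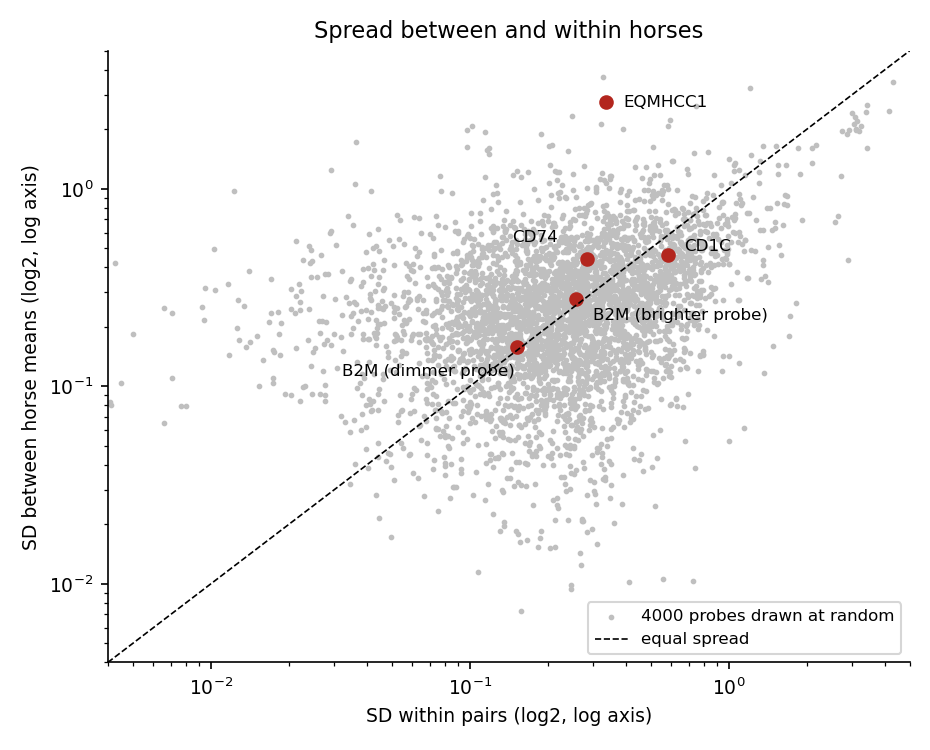
Standard deviation of the 3 horse means against the standard deviation within pairs (both log2 units, log axes) for the 5 probes of the 4 genes, in red, over 4000 probes drawn at random, in grey, with the line of equal spread. EQMHCC1 lies far above the line, at 2.74 against 0.34, and the other 4 lie within the cloud near the line.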

How the data were processed

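RNA was labelled with Cy3 and hybridised to 1-colour Agilent arrays, 1 for each of 6 samples, per the labels. Each deposited file holds the processed signal, an intensity that Feature Extraction 10.10.1.1 background-subtracted and detrended within the array, per the file headers, with no normalization between arrays. The header build is EquCab1, and no coordinate is used here. The aim was before against after exercise, with horse numbers shared by both samples of an animal; same-numbered arrays deviated together from their group means (r = 0.36, 0.40 and 0.23 across probes).

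From the intensities, log2 was taken and the 75th percentile over 43803 non-control spots subtracted. Outlier spots (67 to 169 per array) and 1417 control spots were left out. Probes well above background on at least 3 arrays were kept (29571 of 43603). Groups were compared with two-sided tests of limma 3.58.1 (R 4.3.3), adjusted across every probe tested by Benjamini-Hochberg at 0.05; 29570 probes could be tested. The fit without the horse as a block was the main one. Horses were compared with limma's F-test with exercise in the model. SE is limma's moderated standard error. Where a gene had several probes, the brightest was used. Names came from RefSeq accessions through a table of TB-T2T genes (1979 probes, 870 genes). Subtracting 1 percentile per array leaves differences between bright and dim probes of an array in place.

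The genes and lists were chosen with earlier results of these data known. Genes named are the 4 members, every measured listed gene of the pathway, and the nearest genes by pattern (5 for EQMHCC1, 3 for each other member), plus those said to be chosen after their values were seen. Genes with a LOC symbol were left out of the search by pattern, a choice added later. The 3 samples within a group are from separate animals, the same 3 in both groups, so the spread in a group includes that between animals. Fits were tested on simulated data. Alternatives were normexp correction (offset 50, on the median spot signal), quantile and median normalization, other filters on dim probes, outlier spots kept, horse or slide as a block, slide 1 alone, averaging a gene's probes, and leaving out each array or horse.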

Additional observations from a re-analysis of the deposited data

How the results depend on the processing

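The 17 genes named with an exercise change gave 323 values under the alternatives, of which 0 passed the threshold (smallest adjusted p in limma 0.29) and 44 had the other sign. For the 16 genes tested between horses, 0 of 272 passed (smallest adjusted p 0.086). Over all probes, limma called 0 for exercise with the replicate block (horse), and the block changed no call of a named gene; it called 131 with slide as a block, 122 within slide 1 alone, and 0 to 595 with an array or horse left out (595 without the before-exercise array of horse 4, 20 without both arrays of that horse, 0 in the other 7). Between horses it called 70, and 1 after quantile normalization, 2 with no filter, 1 with outlier spots kept, 1 with slide as a block, and 0 to 456 with an array or horse left out: 0 without horse 1 or either of its arrays, 29 without the before-exercise array of horse 2, 1 without that of horse 4 and 456 without the after-exercise array of horse 4. With slide as a block and within slide 1 alone, the change was -0.35 for CD74, -0.42 for CD1A7, 0.29 for CD1B2, 0.14 for CD1E, 0.48 for CD40, -0.13 for MHCB3, -0.23 for MHCX1 and -0.25 for EQMCE1, each against the sign given above, and 4.19 for EQMHCC1, since 3 horses after exercise are then set against horse 4 before it. CD1C had 0.0074 with median scaling, and EQMCE1 -0.086 with quantile normalization and -0.018 with an average over its probes. With arrays or horses left out the changes ran from -0.95 to 2.20 for EQMHCC1, -0.015 to 0.39 for B2M, -0.00055 to 0.63 for CD74, -0.45 to 0.38 for CD1C, -0.081 to 0.19 for CD1A2, -0.15 to 0.37 for CD1A7, -0.40 to 0.028 for CD1B2, -0.46 to 0.043 for CD1E, -0.44 to 0.11 for CD40, -0.031 to 0.58 for MHCX1, -0.21 to 0.29 for EQMCE1 and -0.46 to 0.63 for TNF. The standard deviation between horses of EQMHCC1 ran from 0.33 without horse 4 to 3.50 without horse 2. Without the before-exercise array of horse 4, all arrays before exercise lay on slide 2 and all after it on slide 1. Exercise and slide cannot be told apart in that fit, nor in the fit without both arrays of horse 4. The cause of these shifts was not tested. The horse comparison could not be fitted within slide 1 alone. Signal over background limits CYP3A93, CYP3A97, CTTNBP2 and CYP3A94, which were well above it on 3 or 4 arrays.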
